A study of Mus musculus with 5 samples.

Results

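FOXO transcription factors and genes tied to them or to stem cell quiescence were followed in sorted mouse blood stem and progenitor cells. Cells with an oncogenic Nras allele were compared with control cells without it. Every library, controls included, came from mice with the gene Cux1 knocked down that had been given doxycycline and the RNA analogue pI:C. The gene set was named by symbol: Foxo1, Foxo3, Foxo4, Pik3ip1, Ccng2, Trp53inp1, Sesn1, Sesn3, Txnip and Bcl6. Of these 10 genes, 9 were among the 11352 genes listed in the authors' table, and Foxo4 was not analysed here. Of the 9, the 6 genes Txnip, Trp53inp1, Pik3ip1, Ccng2, Sesn1 and Sesn3 had every NrasG12D library below every control library, as did 27% of all genes. None of the 9 passed limma over all genes with 5 libraries, where 1.13% of all genes did. These 6 passed once NrasG12D library 3 was left out, in a fit where 37.4% of all genes passed and 19.4% were lower. Foxo1, Foxo3 and Bcl6 overlapped between the groups.

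FOXO proteins are forkhead transcription factors that stand at the end of the insulin and growth factor pathway. When PI3K is active, AKT phosphorylates them and they leave the nucleus. When growth signals are weak they stay in the nucleus and switch on genes that slow the cell cycle, limit oxidative damage and support autophagy. In blood stem cells they are known for keeping cells quiescent and for holding reactive oxygen low.

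The RNA came from haematopoietic stem and progenitor cells (HSPCs), sorted as cells with KIT and SCA1 on their surface but without CD135 or markers of mature lineages. The 2 control libraries (Cux1-low) came from mice with Cux1, a homeodomain transcription factor gene, knocked down. The other 3 libraries (Cux1-low;NrasG12D, called NrasG12D from here on) came from mice with the same knockdown and an NrasG12D allele, an oncogenic form of the small GTPase gene. Both groups of mice had been given doxycycline and the interferon-inducing RNA analogue pI:C for 4 weeks, so the controls share the knockdown and both agents. The sources used here do not give the promoter of the knockdown, the Cre line if any, the age of the mice or whether each library is a separate animal. P-values therefore measure the spread between these libraries, which may in part be technical. No group with normal Cux1 was analysed here, so the comparison asks what the Nras allele adds to Cux1-low cells.

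The libraries held 16489711 to 20262498 reads over the listed genes, and 1 read was worth 0.0481 to 0.0608 of the table's unit, normalized CPM (reads per 1000000 of a library size scaled for composition). NrasG12D library 3 stood apart from the other NrasG12D libraries. With all 5 libraries 128 of 11352 genes passed limma, and without library 3 the number was 4243. Of the sort genes, Kit was at 1359 and 1373 in Cux1-low and at 477, 569 and 816 in NrasG12D libraries 1 to 3 (limma adjusted p = 0.0538). Ly6a, which encodes SCA1, was at 44.7 and 48.7 against 24.2, 14.2 and 37.7 (limma adjusted p = 0.129). Flt3, which encodes the CD135 that the gate excluded, was still at 326 and 388 against 196, 165 and 230 (limma adjusted p = 0.0538).

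The FOXO factor genes came first. Foxo1 (chromosome 3, 52268336 to 52353221, plus strand, GRCm38) had 35.5 and 40.1 normalized CPM in the controls against 38.4, 48.8 and 32.7 in NrasG12D libraries 1 to 3. NrasG12D libraries were both the highest and the lowest of the 5, and the log2 fold change was 0.06 (95% confidence interval -0.38 to 0.51, limma adjusted p = 0.833). Without Cux1-low library 1 or NrasG12D library 2 that small value changed sign, to -0.02 and -0.09.

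Foxo3 (chromosome 10, 42181841 to 42276755, minus strand), the family member best known for stem cell maintenance, was at 11.4 and 11.5 against 9.44, 10.1 and 12.3. The groups overlapped, with library 3 above both controls and libraries 1 and 2 below them. Its log2 fold change was -0.11 (95% confidence interval -0.54 to 0.33, limma adjusted p = 0.710), and 0.12 after quantile normalization. No difference in mRNA of either factor was detectable in 5 libraries. FOXO activity is set mainly by phosphorylation and location of the protein, which mRNA levels do not show.

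**Figure D1:**
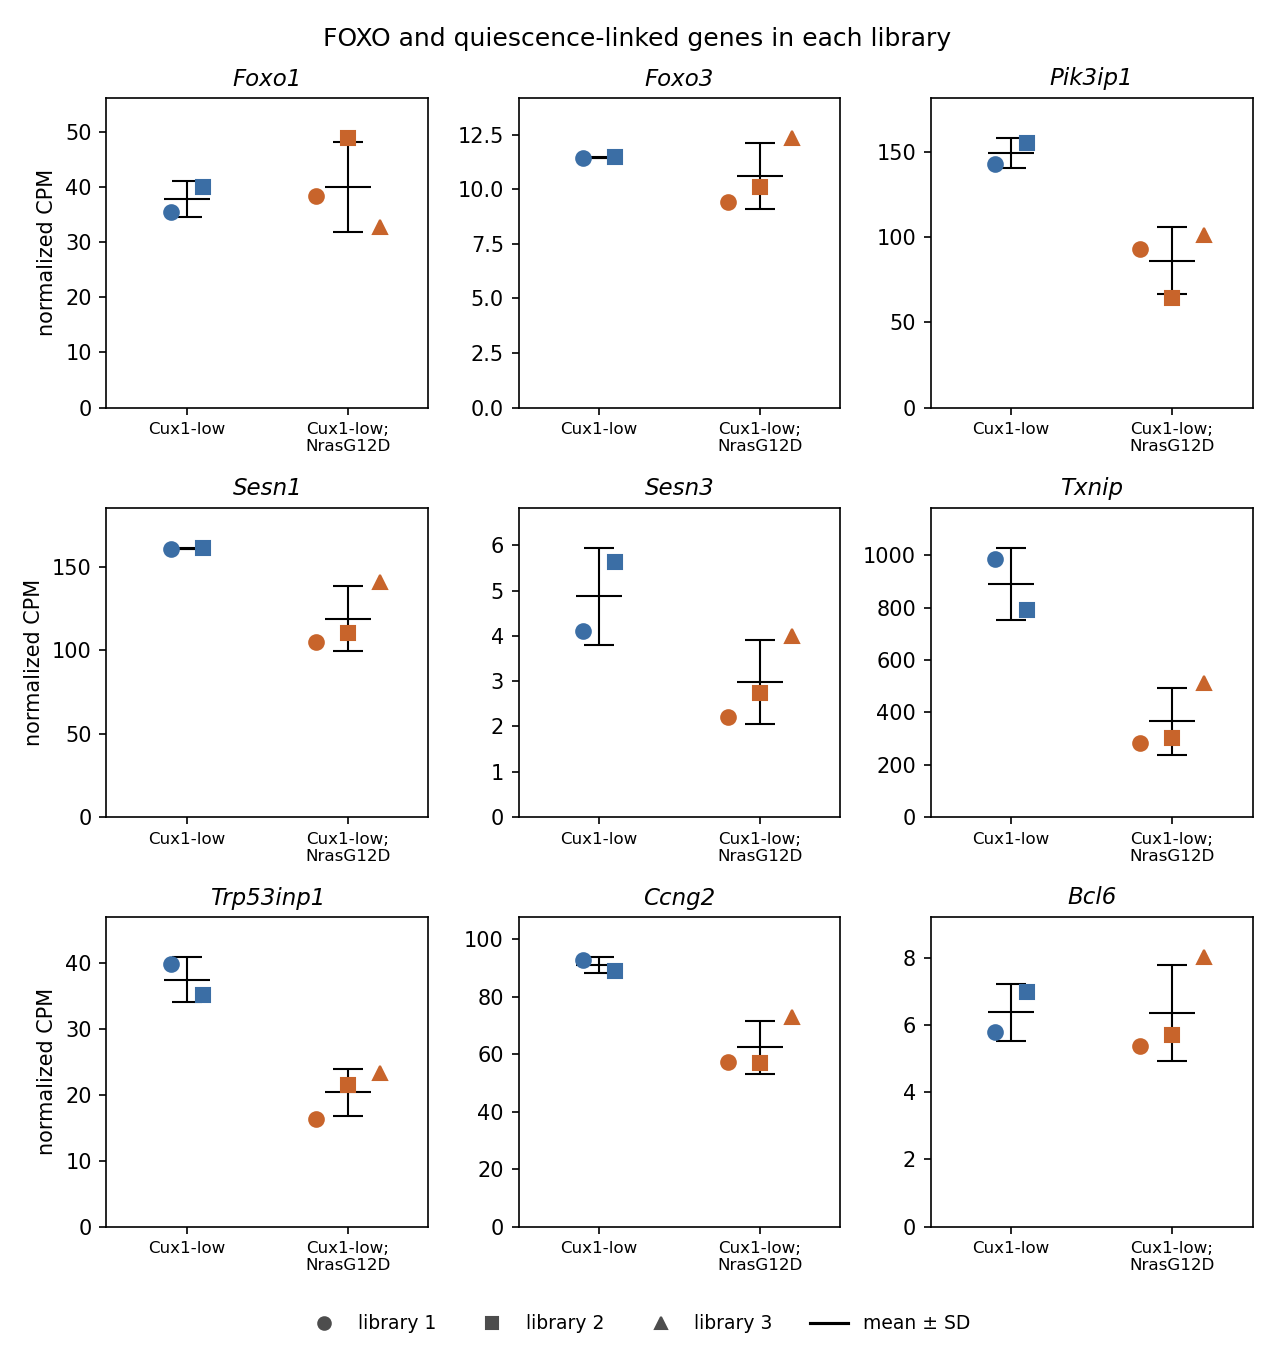
Normalized CPM (y axes, from 0, 1 scale per gene) of the 9 listed genes in each library; circles, squares and triangles mark libraries 1, 2 and 3, and black bars give the mean ± SD of 2 Cux1-low (blue) and 3 NrasG12D (orange) libraries. In 6 panels all orange points lie below all blue points, as for Txnip (283 to 513 against 791 to 987), and the triangle of library 3 is the highest orange point in every panel except that of Foxo1.

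Pik3ip1 encodes a membrane protein that binds the catalytic subunit of PI3K and inhibits it, upstream of AKT and FOXO. It lies on chromosome 11 (3330401 to 3342971, plus strand) and stood at 143 and 155 normalized CPM for the controls against 93.2, 64.0 and 102 in NrasG12D libraries. All NrasG12D values lay below both controls, and library 2 had the lowest. The group means were 149 ± 8.69 (SD, n = 2) and 86.3 ± 19.7 (SD, n = 3), which is 57.8% of the control level. Pik3ip1 differed by -0.81 on the log2 scale (SE 0.20, limma adjusted p = 0.0757), and by -0.94 without library 3 (limma adjusted p = 0.00858).

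The sestrins inhibit mTORC1 when amino acids are short, through the GATOR complexes, and take part in antioxidant defence. Sesn1 is also a p53 target, and Sesn3 is a textbook FOXO target. Sesn1 (chromosome 10, 41809935 to 41908424, plus strand) had 161 in both controls, against 105, 111 and 141 with NrasG12D. The controls differed by far less than the gap to the nearest NrasG12D library, number 3. Sesn1 differed by -0.45 on the log2 scale (SE 0.14, limma adjusted p = 0.102), and by -0.57 without library 3 (limma adjusted p = 0.00546).

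Sesn3 (chromosome 9, 14275067 to 14333101, plus strand) was the thinnest of the 9, with 43 to 117 reads per library. It was at 4.12 and 5.63 normalized CPM against 2.21, 2.74 and 4.01. Library 3 lay just under the lower control. Its log2 fold change of -0.57 (95% confidence interval -1.22 to 0.07, limma adjusted p = 0.198) became -0.75 without library 3 (limma adjusted p = 0.0415). It was smaller after quantile normalization, at -0.34 (limma adjusted p = 0.386). The third sestrin gene, Sesn2, from the list of antioxidant and metabolic FOXO targets, is named here after its values were seen. Sesn2 was at 26.0 and 20.8 against 29.6, 31.6 and 25.2 and overlapped (limma adjusted p = 0.273).

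Txnip was the most abundant of the 9 and lay the farthest apart. It encodes an alpha-arrestin that binds thioredoxin, limits glucose uptake and is known for restraining the cell cycle of stem cells. Txnip stood at 987 and 791 normalized CPM in the controls, against 283, 301 and 513 with NrasG12D. Library 3 lay between its group and the controls, while libraries 1 and 2 were close together at 31.8% and 33.9% of the control mean, against 57.7% in library 3. The group means were 889 ± 138 (SD, n = 2) and 366 ± 128 (SD, n = 3), a 2.43-fold lower level.

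For Txnip the log2 fold change was -1.32 (SE 0.26, 95% confidence interval -1.94 to -0.70), with limma adjusted p = 0.0581, just outside the threshold of 0.05. Of all 11352 genes, 1.89% had a log2 fold change as low or lower. After quantile normalization Txnip passed (log2 fold change -1.44, limma adjusted p = 0.0493, where 1.45% of all genes fell), as it did without library 3 (-1.60, limma adjusted p = 0.00103). Exons of Txnip overlap those of Gm15441 on the other strand. The sources used here do not say if reads were counted by strand, and without strand reads of the pair cannot be told apart. The same holds for Pik3ip1 with Gm12592, Foxo1 with Gm20402 and Bcl6 with Gm37419, and none of these 4 partners was analysed here.

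The promoters of Txnip and of its relative Arrdc4 are shown because these alpha-arrestin genes lay low together. Both windows are the 250 bases before the RefSeq start on GRCm38.p6, at chr3:96557707-96557956 (plus strand) for Txnip and chr7:68749239-68749488 (minus strand) for Arrdc4. Capitals mark the forkhead core GTAAACA, the pair of CACGAG sites with 5 bases between them, which stay in lower case, and the E-box CACGTG.
Txnip: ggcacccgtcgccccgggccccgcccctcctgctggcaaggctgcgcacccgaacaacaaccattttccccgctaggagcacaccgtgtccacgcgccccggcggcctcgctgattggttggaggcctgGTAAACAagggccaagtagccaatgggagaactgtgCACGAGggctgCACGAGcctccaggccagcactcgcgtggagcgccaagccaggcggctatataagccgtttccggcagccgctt
Arrdc4: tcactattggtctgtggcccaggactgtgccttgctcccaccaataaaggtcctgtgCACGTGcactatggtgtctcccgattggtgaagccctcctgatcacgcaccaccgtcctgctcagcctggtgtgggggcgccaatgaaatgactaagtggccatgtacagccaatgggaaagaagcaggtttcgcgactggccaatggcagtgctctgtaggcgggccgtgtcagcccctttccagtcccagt

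Motifs were searched on both strands in RefSeq windows of 250 bases before to 50 bases after each start. Such windows were found for 8 of the 10 named genes (10 windows), and not for Foxo4 and Trp53inp1. The forkhead core GTAAACA stood in 3.65% of all 32851 windows, ATAAACA in 4.6%, and either of them in 7.97%. In Txnip GTAAACA starts 121 bases upstream. The only other match in the set was in Sesn1, on the minus strand in the transcribed part of the window that starts at base 41810324 of chromosome 10, shown as chr10:41810585-41810613, plus strand, with the match in capitals.
Sesn1: gaaccttctacTGTTTACcagccttttgg

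The pair of CACGAG sites with any 5 bases between them occurred in 1 of the 32851 windows, that of Txnip, 85 bases upstream. It is 1 form of the carbohydrate response element, which the glucose sensor MondoA and its partner MLX bind. Pairs with other letters at these sites were not searched for. The count therefore does not show how common the element is, or that Arrdc4 lacks it. The E-box CACGTG, which overlaps neither other motif here, occurred in 7.15% of windows, among them those of Arrdc4 (193 bases upstream) and Bcl6 (60 bases upstream). These matches describe letters, and binding was not measured.

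Other alpha-arrestin and thioredoxin genes came from the list of partners. With 5 libraries 1 of its 27 measured genes fell, Arrdc4, and 26 did not pass, where 0.872% of all genes fell and 1.13% passed. Arrdc4 (chromosome 7, 68736995 to 68749241, minus strand), which like Txnip restrains glucose uptake, had 73.0 and 51.6 normalized CPM in the controls against 21.95, 27.4 and 25.5 with NrasG12D. The 3 NrasG12D libraries lay close together and library 3 was not drawn towards the controls, unlike for Txnip. Arrdc4 fell by 1.27 on the log2 scale (SE 0.19, limma adjusted p = 0.0430). Without Cux1-low library 1 or 2 its log2 fold change was -1.02 and -1.52. Without NrasG12D library 1 or 2 it was -1.18 and -1.34, and the call was lost (limma adjusted p = 0.172 and 0.0701). In those 2 fits only 0 and 12 of all genes fell, so the lost call says little about Arrdc4.

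Arrdc3, another alpha-arrestin gene, was at 71.0 and 115 against 39.0, 45.5 and 36.2 (log2 fold change -1.15, limma adjusted p = 0.0542). The remaining pair, Arrdc1 and Arrdc2, chosen after their values were seen, overlapped between the groups (limma adjusted p = 0.309 and 0.565). Thioredoxin genes, also chosen after their values were seen, lay the other way. Txn1 was at 146 and 144 against 213, 204 and 191 (limma adjusted p = 0.0616), and Txn2, the mitochondrial form, at 207 and 219 against 321, 309 and 244 (limma adjusted p = 0.101). Of the reductase genes, Txnrd2 was at 60.5 and 68.0 against 99.5, 120 and 77.8, and Txnrd1 at 328 and 306 against 248.5, 234 and 298. Without library 3, 6 of the 27 partner genes rose and 3 fell, where 18% of all genes rose and 19.4% fell.

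The genes of the MondoA and MLX pair were also read after their values were seen. Mlxip, which encodes MondoA, was at 109 and 101 against 92.7, 87.1 and 109 and overlapped (limma adjusted p = 0.532). Mlx was at 49.1 and 56.5 against 70.7, 70.9 and 60.3, with every NrasG12D library above the controls (limma adjusted p = 0.137).

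**Figure D2:**
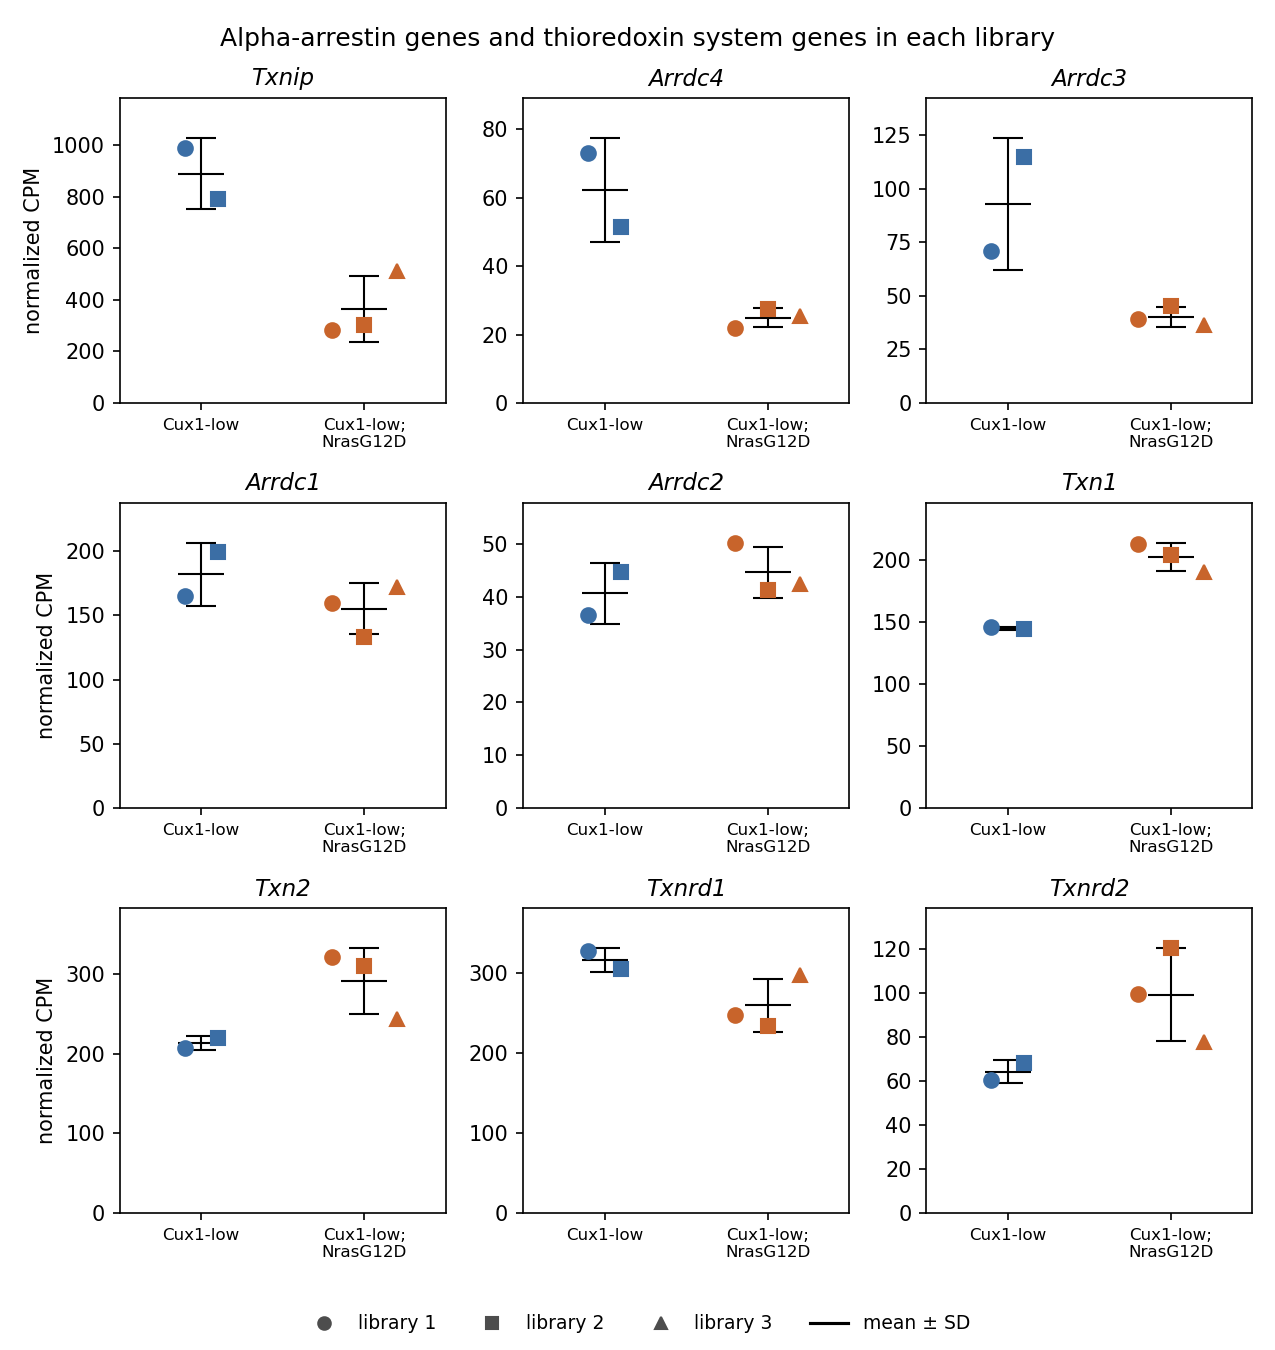
Normalized CPM (y axes, from 0) of Txnip, its alpha-arrestin relatives and thioredoxin system genes in each library, with symbols and mean ± SD bars for 2 Cux1-low (blue) and 3 NrasG12D (orange) libraries. Txnip, Arrdc4, Arrdc3 and Txnrd1 have all orange points below the blue ones, Txn1, Txn2 and Txnrd2 have them above, and Arrdc1 and Arrdc2 overlap.

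Trp53inp1 encodes a stress protein induced by p53 that takes part in cell death and autophagy. It lies on chromosome 4 (11156431 to 11174379, plus strand) and was at 39.8 and 35.04 normalized CPM against 16.4, 21.5 and 23.2. The NrasG12D libraries lay at 43.7%, 57.5% and 62.0% of the control mean, so library 3 was near library 2. Trp53inp1 differed by -0.86 on the log2 scale (SE 0.18, limma adjusted p = 0.0647), and by -0.96 without library 3 (limma adjusted p = 0.00776). Genes of the p53 pathway were read after their values were seen, with no test of their difference from Trp53inp1. Trp53 itself was at 267 and 260 against 326, 308 and 314 (limma adjusted p = 0.122). The p53 target Cdkn1a was at 15.7 and 15.3 against 19.8, 16.6 and 16.2 (limma adjusted p = 0.518), and Mdm2 at 93.1 and 91.6 against 83.9, 87.5 and 85.4 (limma adjusted p = 0.470). Of the other p53 targets named here, Sesn1 had a negative log2 fold change (-0.45). Sesn2 (0.29) and the apoptosis gene Pmaip1 (0.88) had positive ones, and none of them passed.

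Ccng2 encodes cyclin G2, an unconventional cyclin that rises when cells leave the cycle and is a textbook FOXO target. On chromosome 5 (93267257 to 93276231, plus strand), it was at 92.8 and 89.0 normalized CPM against 57.1, 57.1 and 73.0. NrasG12D libraries 1 and 2 were at the same level, and library 3 lay about midway to the controls. Ccng2 differed by -0.55 on the log2 scale (SE 0.14, limma adjusted p = 0.0801), and by -0.66 without library 3 (limma adjusted p = 0.00485).

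Bcl6, a zinc finger repressor gene that FOXO factors are known to induce, did not follow these genes. It lies on chromosome 16 (23965052 to 23988852, minus strand) and was at 5.78 and 6.98 normalized CPM against 5.39, 5.71 and 8.02. The highest and the lowest of the 5 values both came from NrasG12D libraries. The log2 fold change was -0.01 (95% confidence interval -0.56 to 0.53, limma adjusted p = 0.97), and 100 to 145 reads per library lay behind the values. Its sign changed after quantile normalization (0.21) and without Cux1-low library 2, NrasG12D library 1 or NrasG12D library 2 (0.10, 0.08 and 0.04).

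As a set, 8 of the 9 genes had a negative log2 fold change, with a median of -0.55 beside -0.003 over all genes. Among the 8, Foxo3 (-0.11) and Bcl6 (-0.01) lay near 0. The set was chosen with earlier results of these data known. With 5 libraries 0 of 9 passed limma at an adjusted p of 0.05, where 1.13% of all genes passed and 0.872% fell. At an unadjusted p under 0.05, 5 of 9 lay lower, where the share of all genes was 16.5% lower and 31.4% in either direction. The groups did not overlap, with NrasG12D lower, for 6 of 9 and for 27% of all genes, while 53.5% of all genes did not overlap in either direction. In the authors' deposited table, 4 of 9 were lower at an adjusted p under 0.05, where 9.14% of all genes were, and 16.1% passed in either direction. These were Txnip (adjusted p = 0.000274), Trp53inp1 (0.00258), Pik3ip1 (0.00464) and Ccng2 (0.0169), and Sesn1 stood at 0.0614 in the authors' deposited table.

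Of the 5 libraries, NrasG12D library 3 moved the number of calls among the members the most when left out. Without it 6 of 9 fell and 0 rose, in a fit where 37.4% of all genes passed, 19.4% lower and 18% higher. Without NrasG12D library 1 or 2, 0 of 9 passed, in fits where 3 and 22 of all 11352 genes did. With so few calls over all genes, that count says little about the members. Library 3 was the highest of the 3 NrasG12D libraries for 8 of 9 genes, all but Foxo1, and for 39.1% of all genes. Its place was expressed on the log2 scale, from 0 for the average control to 1 for the average of the other NrasG12D libraries. For the 6 genes whose groups did not overlap it ran from 0.29 (Sesn3) to 0.69 (Trp53inp1), with a median of 0.48, beside 0.54 for all genes that lay lower without overlap.

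**Figure D3:**
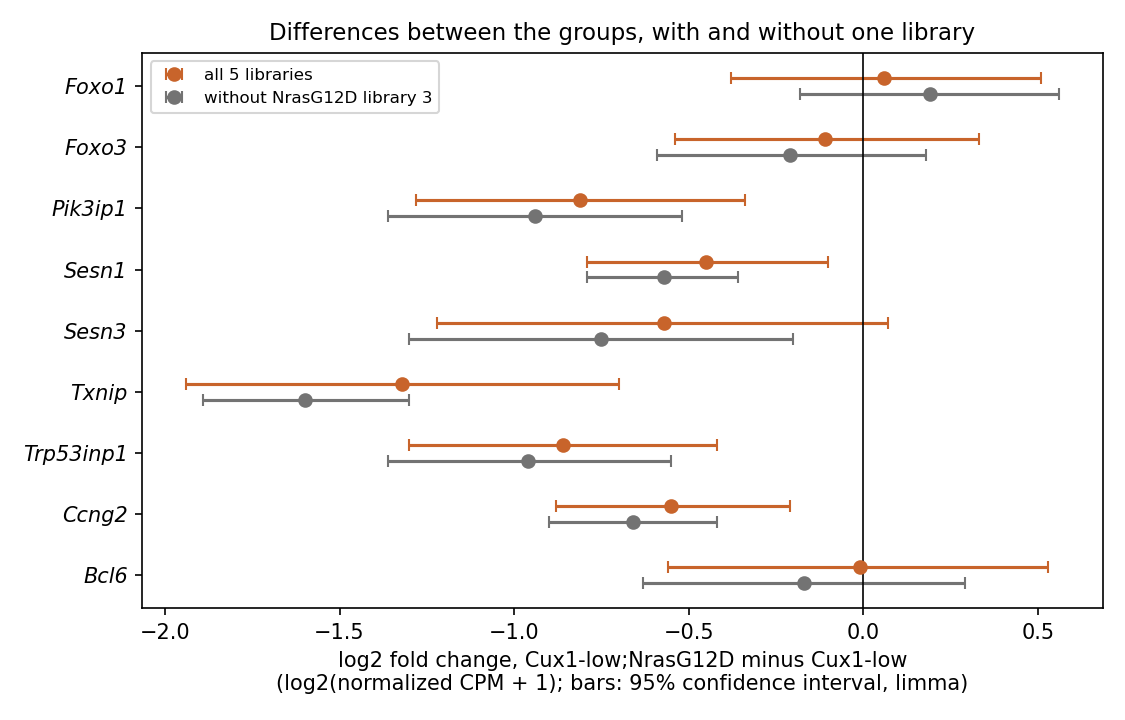
Log2 fold change (x axis, on log2(normalized CPM + 1), NrasG12D minus Cux1-low) of the 9 genes with limma's 95% confidence interval, for all 5 libraries (orange) and without NrasG12D library 3 (grey). The 6 genes from Pik3ip1 to Ccng2 lie left of 0 in both fits, with only the interval of Sesn3 reaching past 0 with 5 libraries, and the intervals of Foxo1, Foxo3 and Bcl6 include 0 in both.

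Levels were compared between genes per kilobase of exon (GENCODE M21, all exons of a gene merged). In Cux1-low the mean normalized CPM per kilobase was 285 for Txnip, 40.4 for Sesn1, 35 for Pik3ip1, 16.7 for Ccng2, 5.78 for Trp53inp1, 4.36 for Foxo1, 1.51 for Foxo3, 0.953 for Bcl6 and 0.319 for Sesn3. Neighbours in that order did not overlap between the 2 Cux1-low libraries. In NrasG12D the order was the same except that Foxo1 (3.78 to 5.64 per kilobase) stood above Trp53inp1 (2.53 to 3.58). Txnip remained the most abundant per kilobase in every library (90.6 to 164 in NrasG12D).

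The regulators of FOXO did not pass in either list with 5 libraries, where 1.13% of all genes passed. Of 22 genes of PI3K, AKT, SGK and the opposing phosphatases, 0 passed with 5 libraries, 15 had a negative sign and the median was -0.15. Pik3cd, which encodes a PI3K subunit of blood cells, was at 253 and 237 against 187, 162 and 188 (limma adjusted p = 0.0756). Without library 3, 6 of the 22 fell and 0 rose, in the fit where 19.4% of all genes fell and 18% rose. Of 26 genes for other kinases, 14-3-3 proteins, acetylation and ubiquitin, 0 passed (median 0.02). Stk4, which encodes the kinase MST1 that phosphorylates FOXO under stress, was at 369 and 340 against 203, 245 and 274 (limma adjusted p = 0.0765). Skp2, a ubiquitin ligase subunit that targets FOXO1 and CDKN1B, was at 49.0 and 42.7 against 63.9, 70.8 and 59.5 (limma adjusted p = 0.0823). Without library 3, 3 of the 26 rose and 1 fell.

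Other known FOXO targets did not share 1 direction. Among 18 cell cycle brakes 0 passed and the median was 0.10. Cdkn1c, a CDK inhibitor of quiescent stem cells, was at 14.7 and 14.8 against 5.18, 3.99 and 8.20 (log2 fold change -1.26, limma adjusted p = 0.0675), and the RB family gene Rbl2 at 178 and 149 against 104, 114 and 130 (limma adjusted p = 0.0838). Without library 3, 1 of these 18 rose and 3 fell, beside 18% and 19.4% of all genes. Of 7 apoptosis genes 0 passed (median 0.00). The death ligand gene Tnfsf10 was at 51.8 and 40.6 against 24.4, 20.4 and 28.7, and the BH3-only gene Pmaip1 at 2.26 and 1.97 against 6.31, 3.42 and 4.8 (limma adjusted p = 0.0626 and 0.0956). Without library 3, 1 of the 7 rose and 2 fell.

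Of 18 antioxidant and metabolic targets 0 passed and the median was 0.11. Cpt1a, which carries fatty acids into mitochondria for oxidation, was at 389 and 284 against 150, 177 and 192 (log2 fold change -0.95, limma adjusted p = 0.0515). Sod2, the mitochondrial superoxide dismutase gene, lay the other way, at 113 and 115 against 159, 157 and 139 (limma adjusted p = 0.0801). Without library 3, 4 of the 18 rose and 5 fell, beside 18% and 19.4% of all genes. Of 16 genes of autophagy and protein breakdown 0 passed, 12 had a negative sign and the median was -0.23. Fbxo32, the ubiquitin ligase gene known as atrogin-1, was at 39.3 and 29.7 against 11.2, 11.8 and 22.8 (limma adjusted p = 0.0806), and Map1lc3b, which encodes a coat protein of autophagosomes, at 191 and 179 against 148, 139 and 153 (limma adjusted p = 0.0910). Without library 3, 7 of these 16 fell and 0 rose.

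The lymphoid homing targets held 6 measured genes, of which 0 passed (median 0.30). The egress receptor gene S1pr1 was at 33.0 in both Cux1-low libraries against 12.9, 10.2 and 29.3 (limma adjusted p = 0.138). Without library 3, 2 of the 6 rose and 1 fell, beside 18% and 19.4% of all genes. With 5 libraries, 0 genes rose and 0 fell in each of these 5 target lists, where 1.13% of all genes passed.

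**Figure D4:**
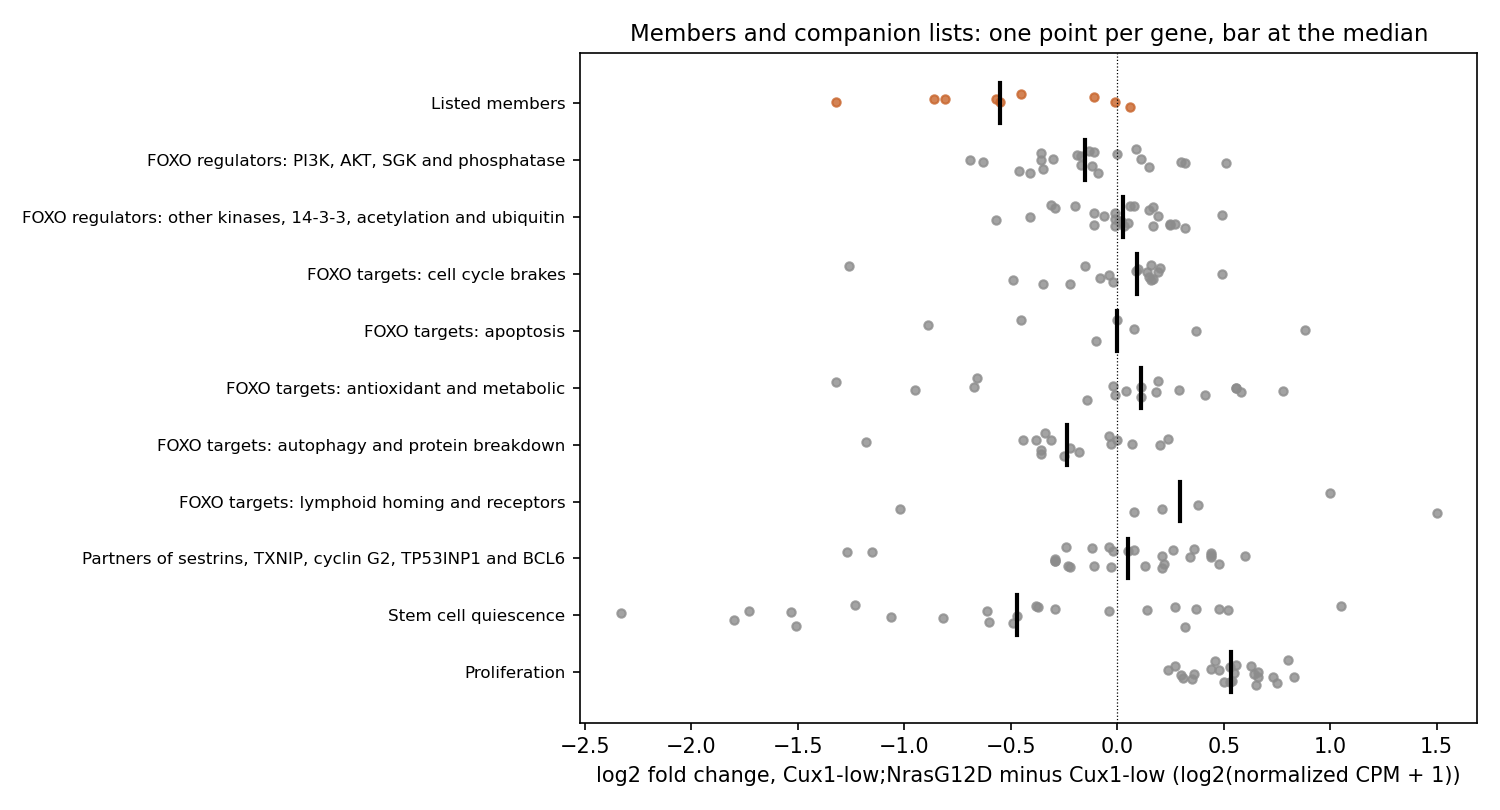
Log2 fold change (x axis, on log2(normalized CPM + 1), NrasG12D minus Cux1-low) of each listed member (orange) and of each measured gene of the companion lists (grey), spread vertically within a row only to separate points, with a black bar at each median. The members' median lies at -0.55, that of stem cell quiescence genes at -0.47 and that of proliferation genes at 0.53, and the target lists lie on both sides of 0.

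Genes of stem cell quiescence and of proliferation were read beside the members. Of 23 quiescence genes 1 fell and 22 did not pass with 5 libraries, where 0.872% of all genes fell and 1.13% passed. The median of the 23 was -0.47. The gene that fell was Ndn, which encodes necdin, a growth suppressor of stem cells, at 13.04 and 18.2 against 1.23, 1.88 and 4.37 (log2 fold change -2.33, limma adjusted p = 0.0498). Without Cux1-low library 1 or 2 its log2 fold change was -2.56 and -2.11. Its call was lost without NrasG12D library 1 or 2 (limma adjusted p = 0.178 and 0.0921). In those 2 fits only 0 and 12 of all genes fell, so that loss says little about Ndn. The call was also lost with a pseudocount of 0.1 or 0.5, a filter of 5 or the robust fit. Mecom, a stem cell transcription factor gene, was at 62.4 and 55.7 against 14.2, 12.7 and 27.4 (limma adjusted p = 0.0517). Without library 3, 14 of the 23 fell and 2 rose, beside 19.4% and 18% of all genes.

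All 24 proliferation genes had a positive sign, with a median of 0.53, and 0 passed with 5 libraries, where 1.13% of all genes passed. E2f1, which drives entry into S phase, was at 77.9 and 65.5 against 118, 117 and 106 (limma adjusted p = 0.0542), and Mki67 at 259 and 247 against 405, 527 and 359 (limma adjusted p = 0.0692). Their summed level was 7225 and 6688 normalized CPM for the controls and 9634, 10990 and 8173 in NrasG12D libraries, with library 3 again nearest to the controls. Without library 3, 21 of the 24 rose and 0 fell, beside 18% and 19.4% of all genes.

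Markers of other cells that the sort could hold moved with the groups in part, and their part in the members' values was not tested. The summed level of 11 measured erythroid genes was 4815 and 5273 normalized CPM for the controls and 8317, 11590 and 5909 in NrasG12D libraries. For 8 B cell genes it was 58.1 and 79.4 against 269, 551 and 60.5, so library 3 was at the control level. For 8 granulocyte and monocyte genes it was 7607 and 10750 against 19790, 13230 and 8259. In these 3 lists 0 genes passed with 5 libraries, where 1.13% of all genes passed. Without library 3, 11 of 11, 8 of 8 and 6 of 8 rose, where 18% of all genes did.

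The 10 megakaryocyte genes summed to 1567 and 1597 against 879, 728 and 1424. Of them 6 fell without library 3, where 19.4% of all genes did. The 7 eosinophil, basophil and mast cell genes summed to 904.5 and 669.8 against 896.4, 678 and 637.9, which overlapped, and their median log2 fold change was -0.01. Of them 2 fell with 5 libraries, where 0.872% of all genes fell. These were the eosinophil granule genes Epx (61.5 and 67.8 against 24.2, 34.0 and 30.7) and Prg2 (156 and 193 against 58.7, 90.4 and 68.0). Both had a limma adjusted p of 0.0430 and were named after their values were seen. The other 5 did not pass, with log2 fold changes from -0.56 (Fcer1a) to 0.44 (Mcpt8). The 6 dendritic cell genes summed to 961.4 and 701.5 against 815.2, 599.4 and 381, which also overlapped. Of them 1 fell with 5 libraries, where 0.872% of all genes fell. This was the MHC class II gene H2-Aa, also named after its values were seen, at 164 and 102 against 53.8, 32.6 and 34.5 (limma adjusted p = 0.0478). The 5 others of this list did not pass, with log2 fold changes on both sides of 0, from -1.54 (Cd74) to 1.14 (Irf8). Without library 3, 3 of the 6 fell and 1 rose, beside 19.4% and 18% of all genes. Without Cux1-low library 1 or 2 the log2 fold changes were -1.18 and -1.04 for Epx and -1.42 and -1.12 for Prg2. For H2-Aa they were -1.35 and -2.04. The calls of Epx and H2-Aa were lost without NrasG12D library 1 or 2, and that of Prg2 without NrasG12D library 1. In those 2 fits only 0 and 12 of all genes fell, so these losses say little about the 3 genes. H2-Aa also lost its call with a pseudocount of 0.1 or 0.5, a filter of 5 or the robust fit (limma adjusted p from 0.0503 to 0.054). Of 7 T cell markers only Lck was listed, at 26.4 to 38.9 in all 5 libraries, while Cd3e, Cd3d, Cd3g, Cd4, Cd8a and Trbc1 were not. In such bulk libraries fewer cells of a type and less RNA per cell cannot be told apart, which holds for every member too.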

How the data were processed

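RNA-seq libraries of sorted mouse HSPCs were compared, 2 Cux1-low with 3 Cux1-low;NrasG12D, grouped by the genotype in the labels. Per the labels' protocols, Trizol RNA went into an Illumina TruSeq v2 preparation. TopHat, HTSeq and edgeR stand in the submitters' processing notes with no version or role, beside the builds mm10 and hg19. The authors' deposited table holds 11352 genes, each above 1 in at least 3 of the 5 libraries, so genes above 1 only in the 2 Cux1-low libraries cannot be in it, and counts of higher and lower genes do not cover both directions alike. Its library columns are headed CPM per the file headers, but these deposited signal values sum to 971746 to 1026780, so they are called normalized CPM. The authors' deposited table also gives a likelihood ratio score, log2 fold changes, log2 mean CPM, and p-values before and after adjustment, from the authors' own comparison.

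Values were whole multiples of 1 step per library within a tolerance of 0.001 of a step, which gives the reads quoted, but the check of the unit did not accept them as recovered counts, so no count test between the groups was run. The main test was limma 3.58.1 (R 4.3.3) with a trended variance on log2(normalized CPM + 1), without a block, Benjamini-Hochberg adjusted over all 11352 genes, threshold 0.05. A filter of 1 in at least 2 libraries removed 0 genes. Adding 1 understates the fold changes of low genes such as Sesn3. The script was tested on simulated data. To look for a library deposited more than once, the reads of each pair of libraries were compared by chi-square, and no pair was within counting noise. The members and the 10 companion and 8 marker lists were chosen with earlier results of these data known. Named were all members, the sort genes Kit, Ly6a and Flt3, and from each list up to 4 genes past the threshold or, if fewer than 2 were, the 2 lowest by p. Of these, 2 genes are not reported here. Of the marker lists, sums and counts are printed. The text says where another gene was named after its values were seen. Promoters are RefSeq's on GRCm38.p6, and gene spans GENCODE M21's on the same build (mm10). Python 3.11.15, numpy 2.4.6, pandas 2.3.3 and matplotlib 3.10.9 were used. 13 alternatives were run: other scalings, pseudocounts, filters and variance models, a replicate block, and each library left out.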

Additional observations from a re-analysis of the deposited data

How the results depend on the processing

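Over 13 alternatives, Txnip, Trp53inp1, Pik3ip1, Ccng2, Sesn1 and Sesn3 kept a negative log2 fold change wherever they were tested (Sesn3 was removed by a filter of 5 in 2 libraries). The number of members called, 0 with limma (5 at an unadjusted p under 0.05), became 1 after quantile normalization and 0 to 6 when 1 library was left out. All-gene calls went from 128 to 213 (182 lower) with values rescaled to 1000000 per library, to 228 (63 higher, 165 lower) after quantile normalization, and to 63 lower with a pseudocount of 0.1. Leaving out 1 library gave 3 to 4243 calls, 3 to 2043 higher and 0 to 2200 lower. Among the genes named, signs changed for 5 whose values lay near 0. With 1 library left out, Foxo1 ran from -0.09 to 0.19, Bcl6 from -0.17 to 0.10, Lck from -0.30 to 0.06 and Arrdc2 from -0.01 to 0.28, and after quantile normalization Foxo3 was at 0.12 and Bcl6 at 0.21. The cause of these changes was not tested.

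The titles number the libraries, but nothing ties equal numbers to a shared animal or day, and deviations of the same-numbered pairs correlated at -0.12 over genes. With the number as a block, which leaves NrasG12D library 3 without a partner, 6 members and 4163 genes (1892 higher, 2271 lower) passed, and Lck was at 0.0039. With 1 Cux1-low library left, the lone sample is assumed to vary like the other group.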
